A study of Mus musculus with 14 samples.

Results

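The 10 genes described here are commonly used as markers of neutrophils: S100a8, S100a9, Csf3r, Camp, Ngp, Ltf, Retnlg, Trem1, Il1r2 and Ly6g. They were chosen by symbol, and all 10 were found among the 21929 genes measured, each with 1 probe set. The values come from the proximal epididymis of mice 8 weeks old and were read from 14 Clariom S arrays (single colour, 100 ng of RNA each). Counted by genotype and replicate number, there were 7 animals. In each mouse the efferent ducts of one side were ligated (EDL), which cuts the epididymis off from the sperm and fluid of the testis, and the other side had sham surgery. Tissue was collected 48 h later. The 4 groups were control tissue after sham surgery (Ctl sham, n = 4), control tissue after EDL (Ctl EDL, n = 4), and the same operations in mice with a conditional knockout of Arl13b (cKO sham and cKO EDL, n = 3 each). Arl13b encodes a GTPase of the ciliary membrane, and it was deleted in Krt5-positive basal cells, so the remaining cells of the tissue kept the gene by design. The strain and the alleles carried by the Ctl mice are not given in the sources used here.

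Neutrophils are short-lived phagocytes that leave the blood for tissues within hours of injury, drawn by chemokines through the receptors Cxcr1 and Cxcr2. They carry ready-made granules that are filled in sequence during maturation in the bone marrow, so that the messenger RNAs of granule proteins are most abundant in immature cells, while mature cells keep mainly those of receptors and of the S100 proteins. S100a8 and S100a9, Csf3r and Il1r2 are also transcribed in some monocytes, and Ltf also in secretory epithelia.

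Each value is a log2 intensity, on which a difference of 1 is 2-fold. Levels were read against a background of 1459 olfactory and vomeronasal receptor genes, whose median was 3.69 and whose 95th percentile, taken as the background level, was 5.31. By this measure 7 of the 10 genes had a mean above background in at least 1 group, and 3 did not. Ly6g, the surface protein by which mouse neutrophils are usually identified, ranged from 3.60 to 4.17 over the 14 arrays. Ngp, the neutrophilic granule protein, ranged from 3.71 to 4.32. Trem1, a receptor that amplifies inflammatory signalling in neutrophils and monocytes, ranged from 4.22 to 4.86. These 3 genes were not above background on any array, in sham or EDL tissue of either genotype. With the markers Ly6g and Ngp at background, the set is not read here as a measure of neutrophils, and the genes are described below by name. Whether these probe sets detect their genes in tissue that holds neutrophils was not tested.

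**Figure D1:**
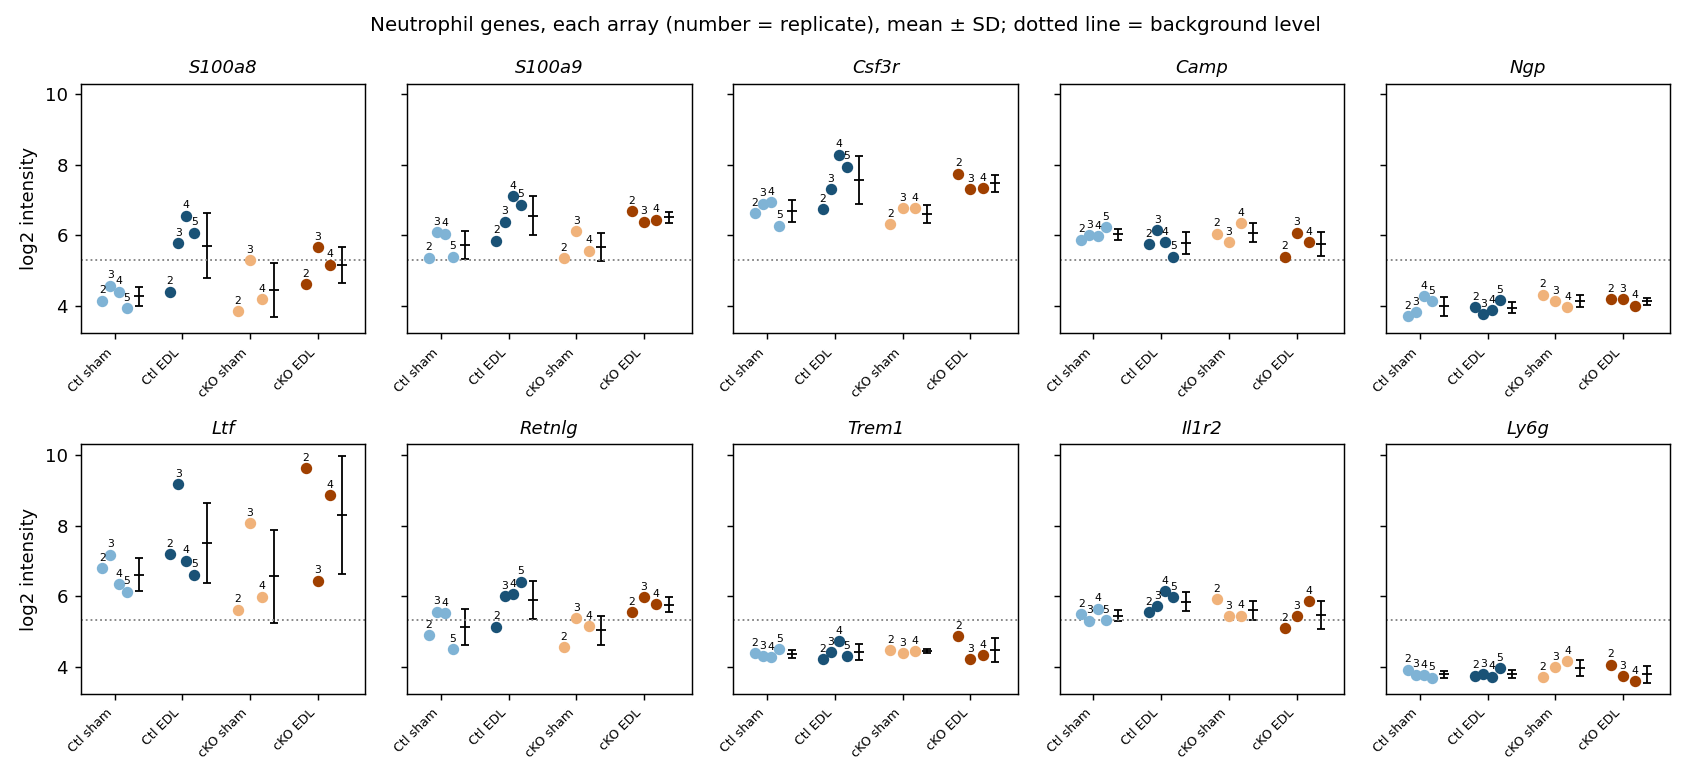
Log2 intensity (vertical axis) of the 10 genes on each of the 14 arrays. Points are arrays numbered by replicate within the 4 groups on the horizontal axis, bars are the mean ± SD, and the dotted line is the background level of 5.31. Ngp, Trem1 and Ly6g lie below the line on every array, S100a8 lies below it on all sham arrays and above it on 3 of 4 Ctl EDL arrays, and Ltf has the widest spread within every group but Ctl sham.

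Comparisons were made with limma, with p-values adjusted over all 21929 genes by the Benjamini-Hochberg method and a threshold of 0.05 for the adjusted p. Errors of differences are moderated standard errors (SE). This fit did not pair arrays by mouse, because the labels do not say which sham and EDL arrays share a mouse. Pairing by genotype and replicate number served as an alternative. In control mice, 1 of the 10 genes passed the threshold after EDL, S100a8, which was higher. Over all genes 3.32% were higher and 4.57% lower by the same rule, so 1 of 10 is a small count to set beside that share. At an unadjusted p under 0.05, 5 of the 10 genes differed, against 20.3% of all genes in either direction. The median difference of the 10 genes was 0.59, and that of all genes was 0.01. In cKO mice no gene of the 10 passed, where 5.04% of all genes were higher and 4.74% lower. There 4 of the 10 had an unadjusted p under 0.05, against 22.4% of all genes, and the median difference was 0.37 against 0.01. In a bulk tissue, a change in the number of cells of a type and a change in RNA per cell cannot be told apart.

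S100a8 and S100a9 form calprotectin, a calcium- and zinc-binding complex that is stored in the cytosol of neutrophils and released as an inflammatory signal. S100a8 read 4.15, 4.58, 4.41 and 3.95 after sham surgery and 4.41, 5.79, 6.56 and 6.08 after EDL in control mice (replicates 2 to 5 in each). Of the EDL arrays 3 lay above every sham array, while replicate 2 lay within the sham range. The difference was 1.44 ± 0.40 on the log2 scale (SE, 4 arrays in each group, 95% interval 0.58 to 2.3, adjusted p = 0.0414 by limma). Because the sham mean of 4.27 was below background, the rise is given as at least 1.32-fold over the background level. This call stood close to the threshold: it was lost without any one of Ctl EDL replicates 3, 4 and 5, any one of the 4 Ctl sham arrays, cKO EDL replicate 4 or cKO sham replicate 4, with differences from 1.15 to 1.87 over all arrays left out in turn and adjusted p up to 0.119. It was also lost with trended and robust variances, at an adjusted p of 0.0863.

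In cKO mice S100a8 read 3.86, 5.31 and 4.19 after sham surgery and 4.63, 5.67 and 5.17 after EDL (replicates 2 to 4 in each). The ranges overlapped through cKO sham replicate 3, and both group means (4.45 and 5.16) were below background, so no fold is given. The difference was 0.71 ± 0.46 (n = 3 and 3, 95% interval -0.29 to 1.70, adjusted p = 0.42), and it was 0.15 without cKO sham replicate 2 and cKO EDL replicate 3. The order of the group means, from low to high, was Ctl sham, cKO sham, cKO EDL and Ctl EDL, and among neighbours in this order the spreads overlapped.

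S100a9 was above background on all 14 arrays. It read 5.37, 6.09, 6.05 and 5.40 in Ctl sham tissue and 5.85, 6.39, 7.12 and 6.87 in Ctl EDL tissue. Again Ctl EDL replicate 2 lay within the sham range and the other 3 lay above it. The difference was 0.83 ± 0.26 (95% interval 0.28 to 1.38, adjusted p = 0.067), which did not pass. The cKO sham arrays read 5.35, 6.12 and 5.57 and the cKO EDL arrays 6.68, 6.39 and 6.45, so that every EDL array was above every sham array. This difference was also 0.83, with an SE of 0.30 (95% interval 0.19 to 1.46, adjusted p = 0.103). Without Ctl EDL replicate 2 the control difference was 1.06 and passed, with an adjusted p of 0.012. With each array left out in turn that difference ranged from 0.64 to 1.06, and over all alternative fits its adjusted p reached 0.181.

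Csf3r encodes the receptor for granulocyte colony-stimulating factor, the main growth factor of the neutrophil lineage. It read 6.63, 6.90, 6.95 and 6.28 in Ctl sham tissue and 6.75, 7.32, 8.29 and 7.95 in Ctl EDL tissue, with replicate 2 once more the only EDL array inside the sham range. The difference was 0.89 ± 0.27 (95% interval 0.32 to 1.46, adjusted p = 0.0573). In cKO tissue the sham arrays read 6.31, 6.77 and 6.77 and the EDL arrays 7.75, 7.32 and 7.35, without overlap. The cKO difference was 0.86 ± 0.31 (95% interval 0.20 to 1.52, adjusted p = 0.102). Neither comparison passed the threshold over all arrays. In control mice Csf3r passed with 1 array less (1.17 without Ctl EDL replicate 2, adjusted p = 0.00544). The cKO difference then passed too, at an adjusted p of 0.0371. With each array left out in turn the control difference ranged from 0.65 to 1.17 and the cKO difference from 0.71 to 0.94. Over all alternative fits their adjusted p reached 0.166 and 0.304.

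Retnlg, a resistin-like secreted protein found in the mouse bone marrow and in mature neutrophils, lay around the background level in sham tissue. Its values were 4.89, 5.56, 5.52 and 4.51 in Ctl sham arrays and 5.14, 6.0, 6.05 and 6.41 in Ctl EDL arrays. In cKO tissue they were 4.56, 5.37 and 5.16 after sham surgery and 5.55, 5.97 and 5.77 after EDL. The control groups overlapped through Ctl EDL replicate 2, and the cKO groups did not overlap. The differences were 0.78 ± 0.28 in control mice (95% interval 0.19 to 1.37, adjusted p = 0.112) and 0.73 ± 0.32 in cKO mice (95% interval 0.05 to 1.42, adjusted p = 0.189). Since both sham means were below background, the measured differences correspond to at least 1.5-fold and at least 1.37-fold over the background level, and neither passed the test. Without Ctl EDL replicate 2 the control difference was 1.03, with an adjusted p of 0.0216. With each array left out in turn that difference ranged from 0.58 to 1.03, and over all alternative fits its adjusted p reached 0.294.

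For S100a9 the group means were 5.68 ± 0.40 (SD) in cKO sham, 5.73 ± 0.40 in Ctl sham, 6.51 ± 0.15 in cKO EDL and 6.56 ± 0.56 in Ctl EDL tissue. For Csf3r they followed the same order, at 6.61 ± 0.26, 6.69 ± 0.31, 7.48 ± 0.24 and 7.58 ± 0.68, and for Retnlg too, at 5.03 ± 0.42, 5.12 ± 0.51, 5.76 ± 0.21 and 5.90 ± 0.54. The 2 sham means lay within an SD of each other for each of these genes, and so did the 2 EDL means. S100a9, Csf3r and Retnlg were also the 3 of 10 genes whose cKO groups did not overlap, all higher after EDL. Over all genes 13.4% were higher and 12.4% lower without overlap in cKO tissue. In control tissue none of the 10 genes was free of overlap, where 6.69% of all genes were higher and 7.41% lower without overlap.

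Upstream sequences are shown for S100a8, the gene that passed the test in control mice, and for S100a9, Csf3r and Retnlg, whose cKO groups did not overlap although they passed in neither genotype. Each is the 250 bases before the transcription start in RefSeq (GRCm38.p6), read 5′ to 3′ on the strand of the gene. Capitals mark 3 motifs: TTNNGNAA, a core recognised by CCAAT/enhancer binding proteins (C/EBP), which drive granulocyte maturation, AGGAAG, bound by PU.1 and other ETS factors, and TATAAA, the TATA box. TTNNGNAA and AGGAAG were searched on both strands, so that CTTCCT marks AGGAAG on the other strand, and TATAAA on the strand shown.
S100a8 (chr3:90668821-90669070, plus strand): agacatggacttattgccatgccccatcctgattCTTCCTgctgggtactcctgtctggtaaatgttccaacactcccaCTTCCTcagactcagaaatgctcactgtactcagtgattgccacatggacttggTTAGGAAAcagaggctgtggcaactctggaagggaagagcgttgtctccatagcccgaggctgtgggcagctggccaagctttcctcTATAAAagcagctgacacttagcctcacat
S100a9 (chr3:90695722-90695971, minus strand): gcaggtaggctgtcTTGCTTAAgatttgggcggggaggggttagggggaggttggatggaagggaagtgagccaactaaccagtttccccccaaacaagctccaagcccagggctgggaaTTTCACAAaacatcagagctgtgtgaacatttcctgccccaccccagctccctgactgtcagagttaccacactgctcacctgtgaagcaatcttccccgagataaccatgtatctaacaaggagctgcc
Csf3r (chr4:126024409-126024658, plus strand): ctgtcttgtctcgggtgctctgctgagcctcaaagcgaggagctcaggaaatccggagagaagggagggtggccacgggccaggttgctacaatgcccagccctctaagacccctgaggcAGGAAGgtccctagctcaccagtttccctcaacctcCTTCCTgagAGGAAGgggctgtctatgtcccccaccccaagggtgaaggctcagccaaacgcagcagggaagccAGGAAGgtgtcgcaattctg
Retnlg (chr16:48872358-48872607, plus strand): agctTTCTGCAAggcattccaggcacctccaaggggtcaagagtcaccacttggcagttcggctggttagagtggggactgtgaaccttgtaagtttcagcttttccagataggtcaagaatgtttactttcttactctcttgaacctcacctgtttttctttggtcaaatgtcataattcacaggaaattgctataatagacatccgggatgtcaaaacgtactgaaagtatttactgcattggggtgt
S100a8 held a TATA box beginning 30 bases before its start, a C/EBP motif at 117 bases and ETS motifs at 171 and 216 bases. S100a9 held C/EBP motifs at 130 and 236 bases, Retnlg held 1 at 246 bases, and Csf3r held 4 ETS motifs at 20, 85, 94 and 130 bases. Marked motifs did not overlap in these sequences. Among 32851 promoter windows of the same length, 36.8% held the C/EBP motif, 29.5% the ETS motif and 7.59% the TATA box, so the first pair of motifs are common. S100a8 and S100a9 lie close together on chromosome 3, on opposite strands.

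Il1r2 encodes the decoy receptor that binds interleukin 1 without signalling. It read 5.49, 5.31, 5.65 and 5.33 in Ctl sham arrays and 5.54, 5.71, 6.14 and 5.98 in Ctl EDL arrays. The cKO arrays read 5.91, 5.44 and 5.45 after sham surgery and 5.10, 5.44 and 5.87 after EDL. The difference was 0.40 ± 0.17 in control mice (95% interval 0.04 to 0.76, adjusted p = 0.197) and -0.13 ± 0.20 in cKO mice (95% interval -0.54 to 0.29, adjusted p = 0.781). Both pairs of groups overlapped. Of all 10 genes Il1r2 had the smallest p in the test of whether the response differed between genotypes, and it is given with that comparison below.

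The remaining members are granule proteins. Camp encodes cathelicidin, an antimicrobial peptide precursor of the secondary granules. It read 5.88, 6.01, 5.98 and 6.23 in Ctl sham arrays and 5.76, 6.16, 5.82 and 5.40 in Ctl EDL arrays. In cKO tissue it read 6.05, 5.80 and 6.35 after sham surgery and 5.40, 6.08 and 5.81 after EDL. Camp was above background on every array, and its mean was lower after EDL in both genotypes, by -0.24 ± 0.17 (95% interval -0.61 to 0.12, adjusted p = 0.476) and -0.31 ± 0.20 (95% interval -0.73 to 0.12, adjusted p = 0.408). The groups overlapped in both genotypes, and neither difference passed the test. Ngp, on the same chromosome and in the same protein family as Camp, differed by -0.04 ± 0.13 and -0.02 ± 0.15, at background levels throughout.

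Ltf encodes lactoferrin, an iron-binding protein of the secondary granules that secretory epithelia also make. It varied most of the 10 genes in 3 of the 4 groups, with an SD of 1.14 in Ctl EDL, 1.31 in cKO sham and 1.67 in cKO EDL tissue. In Ctl sham tissue its SD was 0.47 and that of Retnlg was 0.51. The Ctl sham arrays read 6.80, 7.18, 6.34 and 6.13, and the Ctl EDL arrays 7.19, 9.18, 7.01 and 6.61. The cKO sham arrays read 5.62, 8.06 and 5.99, and the cKO EDL arrays 9.64, 6.44 and 8.86. High values were found on Ctl EDL replicate 3, cKO sham replicate 3, and cKO EDL replicates 2 and 4, so that 1 of the 4 came from a sham operation. The differences were 0.89 ± 0.70 in control mice (95% interval -0.60 to 2.38, adjusted p = 0.539) and 1.76 ± 0.80 in cKO mice (95% interval 0.03 to 3.48, adjusted p = 0.212). Without cKO EDL replicate 3, the low array of its group, the cKO difference was 2.69 with an adjusted p of 0.0364. It was 2.22 with an adjusted p of 0.125 when cKO sham replicate 2 was left out as well. With each array left out in turn the cKO difference ranged from 1.09 to 2.69.

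**Figure D2:**
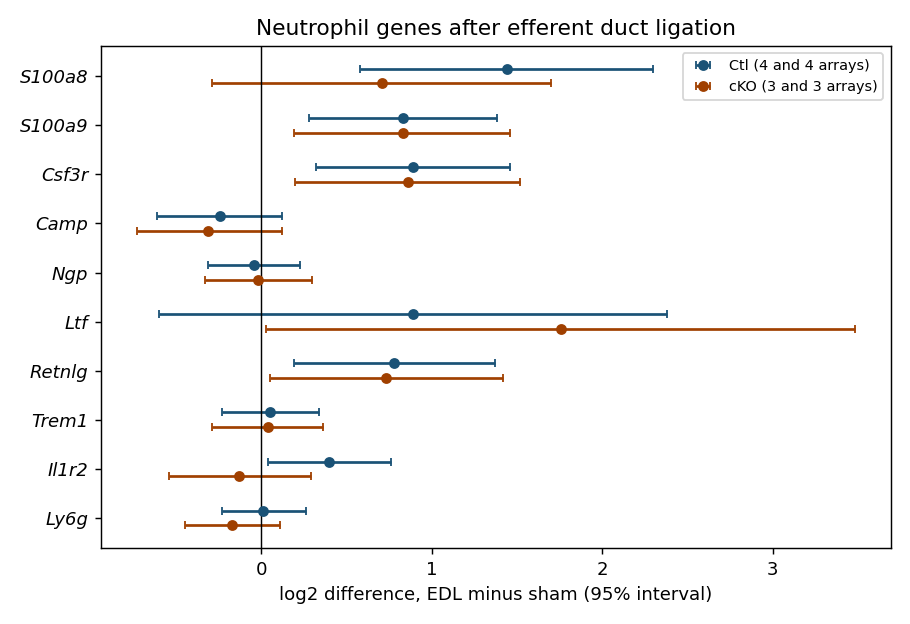
Log2 difference, EDL minus sham (horizontal axis), of the 10 genes in control mice (4 and 4 arrays) and cKO mice (3 and 3 arrays). Points are limma estimates and bars their 95% intervals; S100a9, Csf3r and Retnlg have intervals above 0 in both genotypes without passing the adjusted threshold, and the intervals of Ltf are the widest.

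The genotypes were compared within each operation, which asks whether loss of Arl13b in basal cells goes with another level of these genes. None of the 10 genes passed in sham tissue, in EDL tissue or in the interaction, the test of whether the response to EDL differed. Nor did any of the 21929 genes (0.0% called in each direction by limma). At an unadjusted p under 0.05 the 10 genes gave 0 in each of these comparisons, against 3.65%, 6.08% and 4.1% of all genes. The groups of all 10 genes overlapped in both comparisons of genotypes. Of all genes 2.82% were higher and 2.08% lower without overlap in cKO sham tissue, and 3.11% and 2.63% in cKO EDL tissue. In sham tissue the cKO minus Ctl differences lay between -0.09 (Retnlg) and 0.18 (S100a8), with a median of 0.06. In EDL tissue they lay between -0.55 ± 0.43 for S100a8 (95% interval -1.48 to 0.38) and 0.81 ± 0.75 for Ltf (95% interval -0.80 to 2.42).

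For the interaction, Il1r2 had -0.52 ± 0.26 (95% interval -1.08 to 0.03, unadjusted p = 0.0621, adjusted p = 0.985). S100a8 had -0.73 ± 0.61 (95% interval -2.05 to 0.58, adjusted p = 0.985), so the call in control mice and its absence in cKO mice do not show that the responses differ. For S100a9 the interaction was -0.00 ± 0.39 (95% interval -0.84 to 0.84) and for Csf3r -0.03 ± 0.41 (95% interval -0.90 to 0.84). The intervals of S100a9 and Csf3r leave room for differences between genotypes as large as the responses themselves.

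Samples were then followed array by array. The deviations of S100a8, S100a9, Csf3r and Retnlg from their means over the 14 arrays were averaged, a selection made after their values were seen and so given without a test. This mean was -0.64, -0.11, -0.17 and -0.86 in Ctl sham arrays and -0.36, 0.48, 1.11 and 0.93 in Ctl EDL arrays. It was -0.88, -0.01 and -0.47 in cKO sham arrays and 0.26, 0.44 and 0.29 in cKO EDL arrays. All EDL arrays except Ctl EDL replicate 2 were above 0, and all sham arrays were below it.

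Markers of macrophages and monocytes were also higher on the EDL arrays. Of 15 such genes, all above background, 12 passed the threshold as higher in control mice and all 15 in cKO mice. In control mice the differences of the 15 genes ranged from 0.66 to 1.63, so none was lower. Here and below, a gene is said to rise or fall only where it passed the threshold. Their mean over the 15 genes ranged from 7.18 to 7.93 in Ctl sham arrays, 8.33 to 8.93 in Ctl EDL arrays, 6.88 to 7.81 in cKO sham arrays and 8.65 to 8.84 in cKO EDL arrays. Ctl EDL replicate 2, the EDL array with the lowest S100a8, S100a9, Csf3r and Retnlg, also had the lowest marker mean of the EDL arrays, at 8.33. Other EDL arrays did not keep the same order. In its group cKO EDL replicate 2 had the lowest mean deviation (0.26) and the highest marker mean (8.84). Ctl EDL replicate 4 had the highest deviation (1.11) with a marker mean of 8.80, below the 8.93 of Ctl EDL replicate 5. The part of macrophages and monocytes in the values of S100a8, S100a9, Csf3r and Retnlg was not tested. Of the macrophage genes Cd68, a lysosomal glycoprotein, rose by 0.94 and Ms4a7 by 1.24 on the log2 scale in control mice (adjusted p = 1.83e-05 and 4.6e-05).

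**Figure D3:**
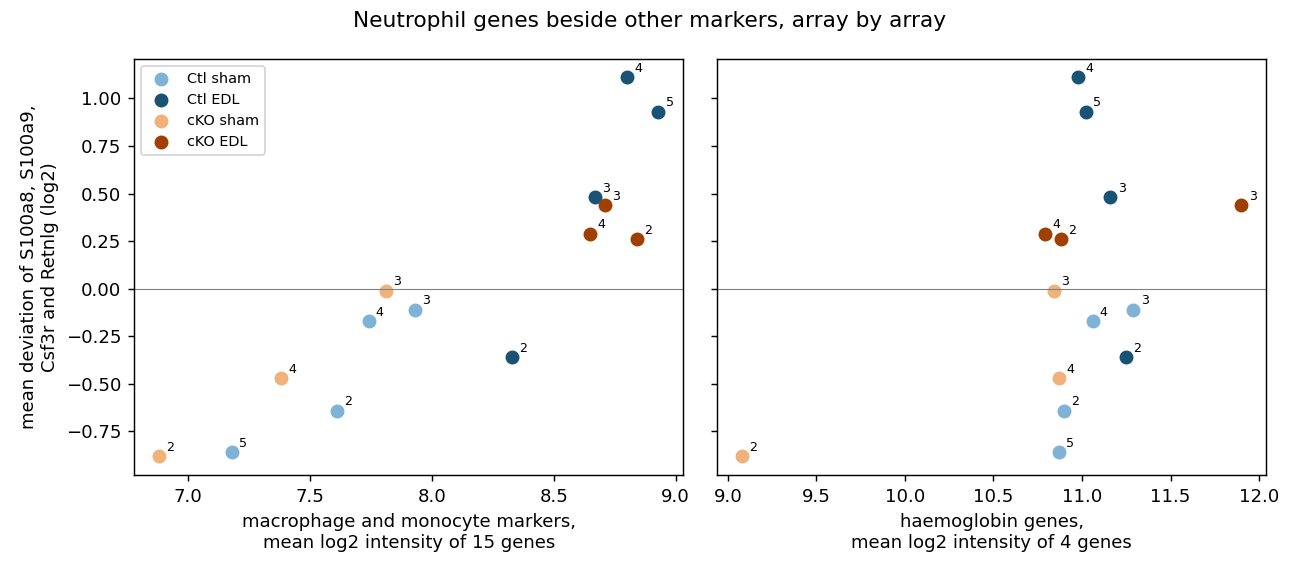
Mean deviation of S100a8, S100a9, Csf3r and Retnlg from their means over the arrays (vertical axis, log2), against the mean log2 intensity of 15 macrophage and monocyte markers (left) and of 4 haemoglobin genes (right). Each point is an array, numbered by replicate and coloured by group; Ctl EDL replicate 2 lies below 0 with a marker mean of 8.33, and cKO sham replicate 2 has the lowest haemoglobin mean, 9.08.

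Other facts of the arrays are brief. Array medians lay between 6.99 and 7.09. Haemoglobin, a sign of blood left in the tissue, had a mean over 4 genes of 9.08 on cKO sham replicate 2 and 11.90 on cKO EDL replicate 3, against 10.79 to 11.29 on the other 12 arrays. With both arrays left out, the cKO differences were 0.72 for S100a9 (adjusted p = 0.329), 0.78 for Csf3r (0.304) and 0.39 for Retnlg (0.661). The part of blood in these values was not tested beyond that. Markers of eosinophils were not above background in any group (0 of 5 genes), and none of 5 B cell, 6 mast cell and basophil or 6 red blood cell markers passed after EDL in either genotype. Above background in at least 1 group were only 1 of the 5 B cell and 1 of the 6 mast cell and basophil markers. Of the 6 red blood cell markers 5 were. Of the T and NK cell markers Klrb1c alone passed, in cKO mice and with the lower value after EDL, but its means were below background in all 4 groups, so no size is given. Of 5 platelet markers 2 rose in cKO mice, Gp1bb and Pf4 (0.50 and 1.11), and 0 passed in control mice. Of 10 epididymal epithelium markers 2 fell in each genotype, among them the cystatin gene Cst8 (-2.96 and -2.77), and 1 rose, the secretory protein gene Crisp1 (0.31 and 0.43, adjusted p = 0.0491 and 0.0197). The call of Crisp1 was lost in 17 of 26 alternatives in control mice, 12 of them single arrays left out, and in 5 of 26 in cKO mice, with cKO EDL replicate 2 or cKO sham replicate 2 or 4 left out among them. Of 4 basal cell markers 2 rose in control mice and 3 in cKO mice.

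Related neutrophil genes outside the 10 were described by role. In no list did any gene pass in the comparisons of genotypes. Genes of the primary granules, the first to be filled, did not pass in either genotype (0 of 5). Of the 5, 2 were above background: group means of the elastase gene Elane lay between 6.58 and 6.71, and those of the proteinase gene Prtn3 between 7.36 and 7.43. Mpo, the myeloperoxidase gene, lay between 4.41 and 4.98 on all arrays, below background. Mpo alone of these 5 had an unadjusted p under 0.05 in each genotype, with the lower mean after EDL. Of 14 further genes of secondary and tertiary granules 7 were above background, none passed in control mice and 1 rose in cKO mice. That gene was Mmp9, a gelatinase of the tertiary granules that macrophages also make. Its cKO sham arrays lay between 5.30 and 6.18 and its cKO EDL arrays between 6.54 and 7.28, a difference of 1.24 ± 0.32 (adjusted p = 0.0244) that was lost in 7 of 26 alternatives, without cKO sham replicate 2 or 4 or cKO EDL replicate 2 or 4 among them. In control mice Mmp9 differed by 0.83 ± 0.28 (adjusted p = 0.088). Lcn2, whose protein is neutrophil gelatinase-associated lipocalin, was at 13.72 ± 0.03 in Ctl sham and 13.72 ± 0.01 in Ctl EDL tissue (SD, n = 4 each). In cKO tissue it was at 13.77 ± 0.03 after sham surgery and 13.73 ± 0.04 after EDL (n = 3 each). These values lie near 13.91, the highest of all probe sets and arrays, where a change may not be measurable.

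Among receptors and surface proteins 4 of 20 genes were higher in control mice and 7 of 20 in cKO mice, and 0 were lower in both. Of the 20 genes, 14 had a mean above background in at least 1 group and 6 did not. The median difference of all 20 was 0.51 and 0.37. Cxcr2, the receptor for neutrophil-attracting chemokines, lay between 5.23 and 5.46 in Ctl sham arrays, around the background level of 5.31. It lay between 5.71 and 6.46 in Ctl EDL arrays. Its difference of 0.63 ± 0.15 (adjusted p = 0.0151) passed in all 26 alternatives, with values from 0.47 to 0.96. In cKO mice Cxcr2 read 5.54 to 5.85 after sham surgery and 5.63 to 6.12 after EDL, with overlap. The difference between the responses was -0.49 ± 0.22 (adjusted p = 0.985). Also higher in control mice were the Fc receptor gene Fcgr3 (0.87 ± 0.20), the selectin ligand gene Selplg (0.77 ± 0.18) and C5ar1, the receptor of complement C5a (0.79 ± 0.19). In cKO mice Lilrb4a (1.86 ± 0.49), the integrin gene Itgb2 (1.39 ± 0.36), Fcgr3 (0.98 ± 0.23) and Selplg (0.90 ± 0.21) were among those that rose. Macrophages transcribe Fcgr3, Selplg, C5ar1, Lilrb4a and Itgb2 as well. Cxcr1 stayed near the background level and did not pass in either genotype. Its means were 5.35 in Ctl sham and 5.29 in Ctl EDL tissue, and 5.44 in cKO sham and 5.15 in cKO EDL tissue.

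The phagocyte NADPH oxidase, which makes superoxide in neutrophils and macrophages, changed in all 6 genes listed for it in both genotypes, with 5 higher and 1 lower. Cyba rose by 0.71 ± 0.13 in control mice and 0.88 ± 0.15 in cKO mice (adjusted p = 0.00328 and 0.00189), and Ncf4 by 1.27 ± 0.31 in control mice (adjusted p = 0.0184). In cKO mice the sham mean of Ncf4 was below background (5.22), and its rise was at least 2.9-fold over the background level (adjusted p = 0.00953). So the members of this list did not move in one direction.

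No gene passed among 12 chemoattractants and growth factors of neutrophils in either genotype. At an unadjusted p under 0.05 there was only Ppbp, a platelet chemokine gene, whose means were below background in all 4 groups. Of the 12 genes, 5 including Ppbp had no group mean above background, so a change in them may not be measurable. Csf3, which encodes the ligand of Csf3r, was at 6.48 ± 0.17 in Ctl sham and 6.26 ± 0.25 in Ctl EDL tissue (SD, n = 4), and at 6.47 ± 0.18 and 6.31 ± 0.14 in cKO tissue (n = 3). Cxcl2, a ligand of Cxcr2, had a mean above background in Ctl EDL tissue only (5.40, against 4.78 to 5.28 in the other groups), and did not pass in either genotype (adjusted p = 0.355 and 0.358). Among 12 signalling partners of the 10 genes 3 rose in control mice and 4 in cKO mice. Il1r1, the signalling receptor for the cytokines that Il1r2 captures, rose by 0.85 ± 0.12 and 0.86 ± 0.14 (adjusted p = 0.000312 and 0.00106). Il1b, one of these cytokines, lay between 4.55 and 5.20 in Ctl sham arrays and between 5.30 and 7.23 in Ctl EDL arrays (adjusted p = 0.0207), and since its sham mean was below background the rise is given as at least 1.63-fold over the background level. In cKO tissue Il1b was between 4.91 and 5.17 after sham surgery and between 5.25 and 5.36 after EDL, with both means below background, so the sizes of the responses could not be compared (adjusted p of the interaction = 0.985). Tyrobp, the adaptor through which Trem1 and many other myeloid receptors signal, rose by 1.01 ± 0.25 and 1.46 ± 0.28 (adjusted p = 0.0206 and 0.00493). The receptor Lrp1 (1.33 ± 0.26) and Il1rap, a subunit that Il1r1 and Il1r2 share (0.47 ± 0.14, adjusted p = 0.0482), rose in cKO mice, and the call of Il1rap was lost in 18 of 26 alternatives, 11 of them single arrays left out.

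Of 6 transcription factors of granulocyte development 1 rose and 1 fell in each genotype. Spi1, which encodes PU.1 and is also needed in macrophages, rose by 1.18 ± 0.29 and 1.79 ± 0.33 (adjusted p = 0.0193 and 0.00333). Cebpb fell by 0.38 ± 0.09 and 0.34 ± 0.10 on the log2 scale (SE, adjusted p = 0.0158 and 0.049). The second of these p-values lay at the threshold and was lost in 18 of 26 alternatives.

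Calls among these related genes differed in how far they rested on single arrays. Il1r1 and Cyba passed in all 26 alternatives in both genotypes, as did Ncf1 in control mice, and Spi1, Tyrobp and Lrp1 in cKO mice. In control mice Ncf4, Rac2, Tyrobp, Spi1 and C5ar1 were each lost without Ctl EDL replicate 4, 5 or Ctl sham replicate 5, with adjusted p up to 0.0646, 0.0715, 0.0651, 0.062 and 0.0631 over the arrays left out in turn. Ncf4, Rac2 and Tyrobp were lost without Ctl EDL replicate 3 as well, and Rac2 and Tyrobp without Ctl sham replicate 2. Fcgr3 was lost without Ctl EDL replicate 5 or Ctl sham replicate 5 (up to 0.0537), Selplg without Ctl EDL replicate 4 or 5 (up to 0.0557) and Cebpb without Ctl sham replicate 2 (0.056). Il1b was lost without Ctl sham replicate 2, 4 or 5 (up to 0.0612). In cKO mice Itgb2 and Lilrb4a were lost without cKO sham replicate 2 or 4 or cKO EDL replicate 2 (up to 0.113 and 0.125), Lilrb4a also without cKO EDL replicate 4, Pf4 like Itgb2 (up to 0.14), Selplg with replicate 2 of either cKO group left out (up to 0.081), and Fcgr3, Ncf1 and Ncf4 without cKO sham replicate 2 (up to 0.0851, 0.059 and 0.0546). With mouse (genotype and replicate number) as a fixed replicate block, the calls of C5ar1 (adjusted p = 0.0635) and Il1b (0.0527) in control mice and of Mmp9 (0.0594), Itgb2 (0.0651), Lilrb4a (0.0659), Il1rap (0.0564), Cebpb (0.0715) and Pf4 (0.0514) in cKO mice were lost, and so were those of Crisp1 (0.0764) and Krt14 (0.055) in control mice. The authors' p-values, adjusted here, lost calls as well. In control mice these were Fcgr3, Selplg, C5ar1, Ncf4, Rac2, Tyrobp, Il1b, Spi1, Crisp1 and Krt14 (adjusted p from 0.0535 to 0.0693). In cKO mice they were Mmp9, Selplg, Fcgr3, Itgb2, Lilrb4a, Il1rap, Cebpb and Pf4 (adjusted p from 0.0501 to 0.0897). Each of these differences kept its sign in every alternative.

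**Figure D4:**
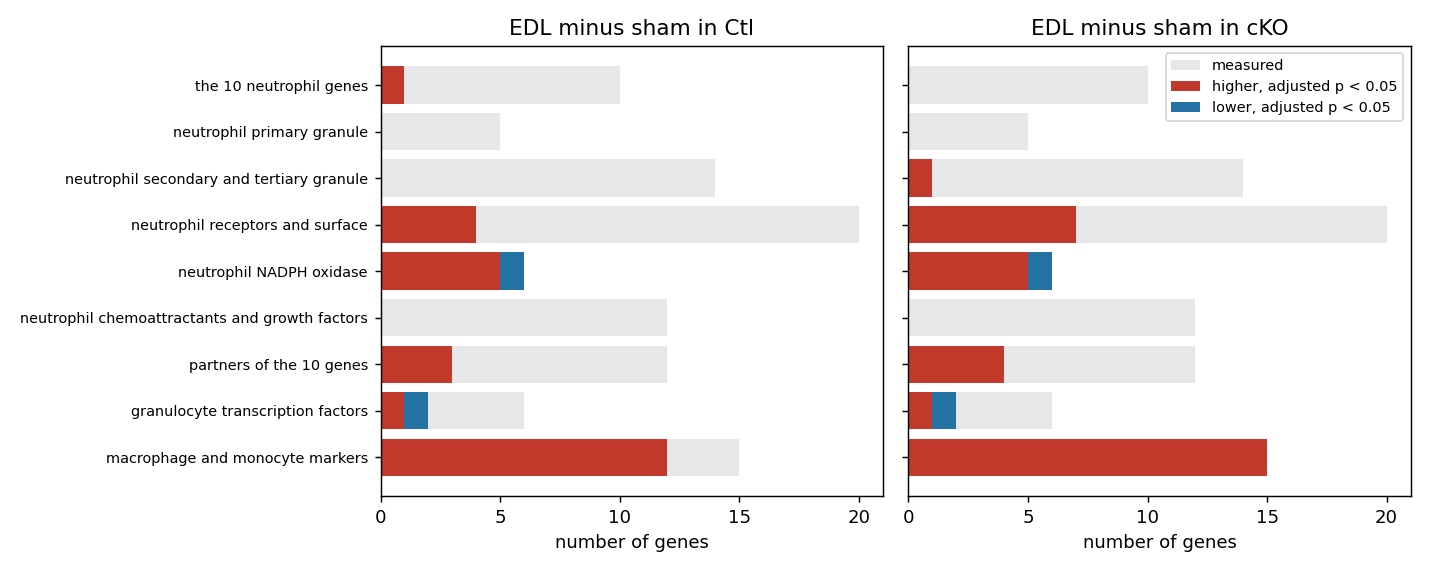
Number of genes measured (grey) and number with an adjusted p under 0.05 that were higher (red) or lower (blue) after EDL, for the 10 genes, the related lists and the macrophage and monocyte markers, in control mice (left) and cKO mice (right). The red bar of the 10 genes holds 1 gene in control mice and 0 in cKO mice, and that of the macrophage and monocyte markers holds 12 and 15 of 15.

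Genes outside the set were ranked by how closely their level followed the set over the 14 arrays, among 16331 genes above background. The arrays share 2 operations, so these coefficients are given as descriptions only. The 5 genes closest to the mean of the 7 members above background were the oxidase subunit gene Ncf1 (Pearson r = 0.969), the inhibitory receptor gene Pirb (0.954), Ncf4 (0.951), Nrros (0.948) and the lipid droplet protein gene Plin2 (0.947). For S100a9 alone they were Nfam1 (0.961), Tmem106a (0.954), Themis2 (0.948), Rbpj (0.945) and P2ry6 (0.945). With the group means removed, r lay between 0.887 (Pirb) and 0.974 (Ncf1) for the first 5 genes. For the 5 genes closest to S100a9 it then lay between 0.927 (Tmem106a and Rbpj) and 0.989 (Themis2).

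Ltf, examined in this way after its spread was seen, followed other genes. The closest were Notch3 (0.921), Arf5 (0.909), Sprr2a3 (0.896), Sprr2a2 (0.89) and Bag2 (0.89). Sprr2a2 and Sprr2a3, small proline-rich proteins of epithelia, are near-identical copies whose probe sets may share signal, so they count as uncertain. Notch3 read 7.95 and 7.78 on cKO EDL replicates 2 and 4, 7.76 on Ctl EDL replicate 3 and 7.67 on cKO sham replicate 3, the arrays with the highest Ltf, and between 7.33 and 7.71 on the others. Its own difference after EDL was 0.05 in control mice and 0.31 in cKO mice (adjusted p = 0.872 and 0.149).

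**Figure D5:**
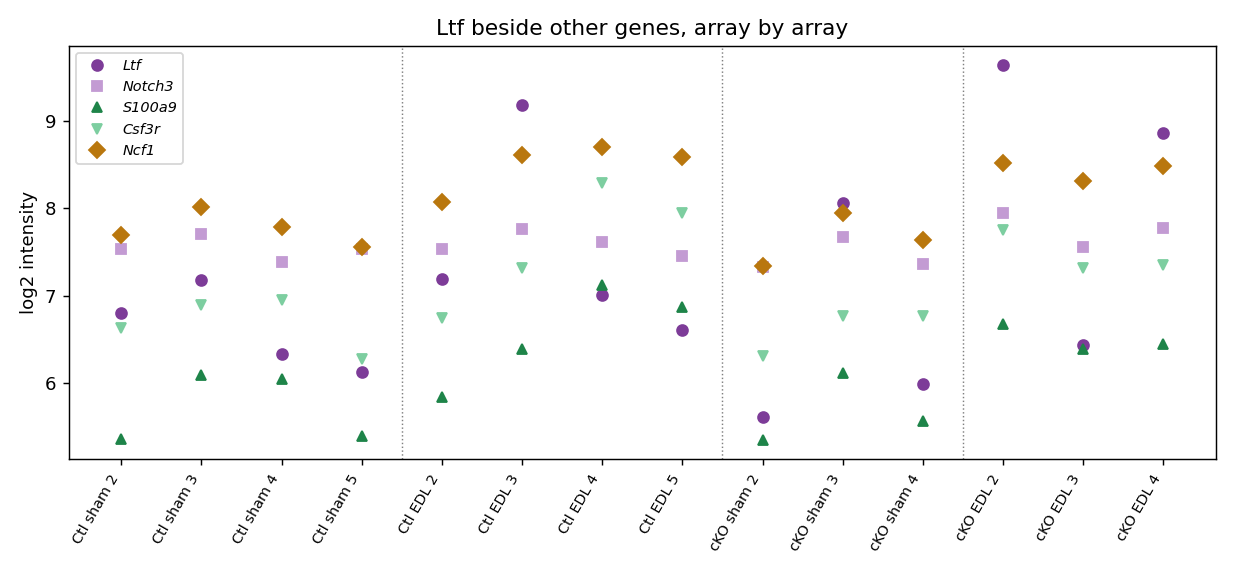
Log2 intensity (vertical axis) of Ltf, Notch3, S100a9, Csf3r and Ncf1 on each of the 14 arrays (horizontal axis, dotted lines between groups). Ltf is highest on cKO EDL replicates 2 and 4, Ctl EDL replicate 3 and cKO sham replicate 3, while S100a9 and Csf3r are highest on Ctl EDL replicate 4.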

How the data were processed

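Log2 intensities were analysed as deposited by the authors. Partek 7.0, RMA and Affymetrix Expression Console appear in the submitters' processing notes, without their roles. A comparison table deposited by the authors held p-values and ratios. Its ratios of Ctl sham to cKO sham matched differences of the log2 values within 0.001 for 100.0% of probe sets. Ratios of other comparisons were not checked. The p-values of this table, adjusted here, served as an alternative. Its 14 columns of array values were not used, since 5826 of 22207 lines carried another identifier. Log2 values from another deposited table (28846 lines) were an alternative.

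Names of the 22206 probe sets came from the deposited symbols and from RefSeq accessions (20456 matched), and the highest-mean probe set per symbol was kept, which left 21929 genes without a filter. Promoter sequences are RefSeq's (GRCm38.p6); the arrays' own annotation has a build not given in the sources used here. In limma 3.58.1 (R 4.3.3) each of the 4 groups had a mean; tests were two-sided with 10 residual and 4.16 prior degrees of freedom. Arrays have no depth, and their number limits the precision. Replicates are different mice; no batch could be compared. The 10 genes, the 16 related lists and the background were chosen with earlier results of these data known. Named were all 10 genes, up to 4 genes per list with the smallest p, and the 5 most similar genes, except 1 gene that is not reported here; Lcn2, Csf3 and the Ltf profile were chosen after their values were seen. On simulated data, 93.0% (Ctl) and 91.5% (cKO) of 200 genes changed 2-fold were recovered among 21929 genes, with no wrong sign and 13 and 12 false calls. The 200 genes were drawn at random from all genes, with independent normal noise at each gene's own SD. These shares therefore do not give the recovery of the 10 genes, whose SEs reached 0.80 (Ltf after EDL in cKO mice).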

Additional observations from a re-analysis of the deposited data

How the results depend on the processing

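The 10 genes were refitted under 25 alternatives set with the design and 1 added after the data were seen, which left out cKO sham replicate 2 and cKO EDL replicate 3 together. In control mice 1 of the 10 genes passed; 3 passed with mouse as a random replicate block (S100a9 and Csf3r besides S100a8, adjusted p = 0.0451 and 0.041), 2 of 7 with genes above background only, and 0 with trended and robust variances or with the authors' p-values. With 1 array left out, 0 to 4 passed, 4 of them without Ctl EDL replicate 2. In cKO mice 0 passed; 2 passed with only the arrays compared in the fit (S100a9 and Csf3r, adjusted p = 0.0433 and 0.0228), and 0 to 1 with an array left out. Mouse as a fixed replicate block left these counts at 1 and 0. The labels do not say whether same-numbered arrays of a genotype are one mouse. Correlations of their deviations lay between -0.002 and 0.198, and 4 of 7 arrays had the same number as best partner. No chance level was worked out for these values, so they do not settle the question. In the comparisons of genotypes and the interaction, 0 of the 10 genes passed under every alternative run. Centring arrays on their medians changed the split of all genes called from 727 higher and 1002 lower to 567 and 1163 in control mice, and from 1106 and 1040 to 786 and 1467 in cKO mice.

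Signs changed only for differences that had not passed. After EDL in control mice Ly6g became -0.04 in the second table, -0.02 with centring and -0.00 with array weights. In cKO mice Trem1 became -0.03 with centring. The genotype difference in sham tissue became 0.17 (second table) and 0.16 (array weights) for Ltf and 0.03 (array weights) for S100a9, and in EDL tissue 0.02 (array weights) for S100a9 and 0.03 (second table) for Camp. The interaction became 0.03 (array weights) for Csf3r, 0.04 (second table) for Retnlg, and -0.03 (second table) and -0.01 (centring) for Ngp. Without cKO sham replicate 2 and cKO EDL replicate 3 the difference after EDL in cKO mice became 0.04 for Ngp and 0.04 for Il1r2. That in sham tissue became 0.12 for S100a9, 0.08 for Csf3r, 0.41 for Ltf, 0.15 for Retnlg and -0.00 for Il1r2. In EDL tissue it became 0.01 for S100a9 and 0.02 for Ly6g, and the interaction became 0.13 for Trem1 and, with its sign kept, -0.23 for Camp.

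With an array left out in turn, the difference after EDL in control mice ranged from -0.13 to 0.06 for Ngp, -0.05 to 0.12 for Trem1 and -0.04 to 0.06 for Ly6g. In cKO mice it ranged from -0.10 to 0.07 for Ngp, -0.16 to 0.16 for Trem1 and -0.33 to 0.06 for Il1r2. The genotype difference in sham tissue ranged from -0.24 to 0.48 for S100a8, -0.27 to 0.12 for S100a9, -0.21 to 0.08 for Csf3r, -0.10 to 0.17 for Camp, -0.81 to 0.41 for Ltf, -0.29 to 0.15 for Retnlg and -0.00 to 0.23 for Il1r2. In EDL tissue it ranged from -0.29 to 0.14 for S100a9, -0.38 to 0.13 for Csf3r, -0.18 to 0.16 for Camp, -0.39 to 0.03 for Retnlg, -0.14 to 0.18 for Trem1 and -0.14 to 0.09 for Ly6g. The interaction ranged from -0.24 to 0.22 for S100a9, -0.31 to 0.21 for Csf3r, -0.22 to 0.12 for Camp, -0.07 to 0.12 for Ngp, -0.30 to 0.16 for Retnlg and -0.21 to 0.11 for Trem1. The cause of these changes was not tested.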
